A study of Mus musculus with 12 samples.

Results

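AP-1 is not a single protein but a family of dimers that bind DNA through a basic leucine zipper. The genes described here are 10 members of that family: Fos, Fosb, Fosl1 and Fosl2 of the FOS group, Jun, Junb and Jund of the JUN group, Atf3, the small MAF gene Maff, and Batf. They were taken by name and each was found once among the 24675 genes that had a symbol in the array table. JUN proteins pair with each other or with FOS, ATF, MAF or BATF partners, and the pair decides which DNA site is read and how strongly a gene is driven. In macrophages AP-1 is known to act beside lineage factors at enhancers, and several of its genes are immediate early genes, transcribed within minutes of a signal from pre-existing factors that MAP kinases switch on.

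Expression was measured on whole-transcript arrays in primary bone marrow-derived macrophages (BMDM) of wild-type mice aged 8 to 10 weeks, grown for 7 days with L cell-conditioned medium, a source of the macrophage growth factor M-CSF. Hepcidin, the peptide hormone that binds the iron exporter ferroportin, was added after the cells of all groups had spent 1 h in DMEM alone, without that factor. The groups were hepcidin for 3 h, PBS (the vehicle) for 3 h, hepcidin for 1 h and PBS for 1 h, with 3 arrays each. The comparisons ask how hepcidin alters macrophage RNA at either time. The hepcidin dose is 1 µg/ml in one protocol of the labels and 10 µg/ml in another, so it is not settled. The sample titles put a number from 1 to 3 after BMDM, with the same numbers in every group. The labels name no animal or culture behind a number and do not say whether a number marks the same source. The p-values therefore reflect only how these samples scattered, which may be technical. In their deviations from the group means all 12 arrays correlated best with their own number, a hint from the data only. The main fit leaves the number out.

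Values are RMA expression on the log2 scale, so a difference of 1 is a doubling of signal. The array medians lay between 4.84 and 4.94, arrays of a group correlated at 0.994 to 0.997 across probe sets, and the number of arrays limits the precision. All 8 macrophage markers tested (Adgre1, Csf1r, Cd68, Itgam, Fcgr1, Mertk, Cd14 and Spi1) lay above the array median, and their mean level was 10.8 to 10.9 with hepcidin and 10.8 to 11.0 with PBS at 3 h, and 10.9 to 11.0 with hepcidin and 10.8 to 10.9 with PBS at 1 h. Above that median were also 4 of 9 neutrophil, 2 of 7 fibroblast, 1 of 7 lymphocyte and 1 of 5 mast cell markers. The highest mean of another cell type's markers on any array was 4.84, for fibroblasts. In limma 0 of the 38 markers of neutrophils, dendritic cells, lymphocytes, fibroblasts, mast cells and erythroid cells passed at either time. A difference in bulk RNA cannot tell fewer cells of a type from less RNA per cell.

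The promoter windows of the 4 members called with hepcidin against PBS are shown because they surround the annotated starts of those genes. Each window runs from 250 bases before to 50 bases after the RefSeq gene start in mouse build GRCm38.p6. Fos lies on the plus strand at chr12:85473640-85473939, Junb on the minus strand at chr8:84978699-84978998, Jund on the plus strand at chr8:70697489-70697788 and Batf on the plus strand at chr12:85686470-85686769. Capitals mark matches on either strand to the motifs searched, which are given after the sequences.
Fos: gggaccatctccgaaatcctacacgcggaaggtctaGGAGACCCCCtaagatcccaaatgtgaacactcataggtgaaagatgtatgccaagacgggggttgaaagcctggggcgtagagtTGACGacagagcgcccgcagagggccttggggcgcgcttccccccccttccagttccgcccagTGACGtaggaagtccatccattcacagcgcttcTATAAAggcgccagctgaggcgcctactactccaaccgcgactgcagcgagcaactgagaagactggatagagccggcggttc
Junb: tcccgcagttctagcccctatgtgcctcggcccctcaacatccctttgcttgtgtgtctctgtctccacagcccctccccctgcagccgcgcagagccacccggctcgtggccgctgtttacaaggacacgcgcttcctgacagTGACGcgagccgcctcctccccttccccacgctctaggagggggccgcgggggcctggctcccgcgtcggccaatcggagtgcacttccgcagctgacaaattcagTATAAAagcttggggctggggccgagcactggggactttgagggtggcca
Jund: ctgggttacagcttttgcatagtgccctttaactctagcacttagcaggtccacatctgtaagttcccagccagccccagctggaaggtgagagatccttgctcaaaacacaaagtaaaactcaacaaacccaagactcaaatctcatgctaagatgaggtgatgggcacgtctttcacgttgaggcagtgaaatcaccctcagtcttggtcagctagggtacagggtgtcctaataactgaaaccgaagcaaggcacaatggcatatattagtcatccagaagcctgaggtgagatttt
Batf: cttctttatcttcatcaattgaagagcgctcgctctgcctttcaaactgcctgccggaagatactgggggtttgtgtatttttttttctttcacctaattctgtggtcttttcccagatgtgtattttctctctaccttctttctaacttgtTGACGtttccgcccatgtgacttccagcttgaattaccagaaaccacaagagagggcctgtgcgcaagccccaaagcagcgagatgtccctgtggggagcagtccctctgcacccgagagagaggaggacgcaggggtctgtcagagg

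The motifs were the AP-1 site TGANTCA, the cAMP response element (CRE) TGACGTCA and the CRE core TGACG within it, the CArG box of serum response factor, the kappaB site, the STAT site TTCNNNGAA and the TATA box TATAAA. A full CRE also counts as a core on both strands. Windows were found for 9 of the 10 genes, 11 windows in all, since Maff has 3 annotated starts. The AP-1 site was in 0 of the 11, against 7.81% of 32851 windows of all genes, and the CArG box in 0, against 1.63%. Only exact pattern matches inside the windows were counted, so a variant site or one farther from the start would be missed. The core was found in 7 of the 11 windows, those of Fos, Fosb, Junb, Atf3 and Batf and 2 of Maff, against 20.8% of all windows. A kappaB match stood in 4 windows, of Fos, Fosb, Fosl2 and Maff, against 8.46%, and a TATA box in 2, of Fos and Junb, against 13.6%. Fos carried 2 cores, 129 and 66 bases before its start, with a TATA box 33 bases before it. Junb had 1 core at 106 bases before its start and a TATA box that begins at the annotated start, and Batf had 1 core at 98 bases. The Jund and Jun windows held 0 exact matches to these motifs, which does not exclude variants of them. The full CRE (1.79% of all windows) and the STAT site (8.3%) stood together in 1 Maff window. A match is a description of the letters and not evidence of binding, and the motifs were chosen with the expression values known.

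**Figure D1:**
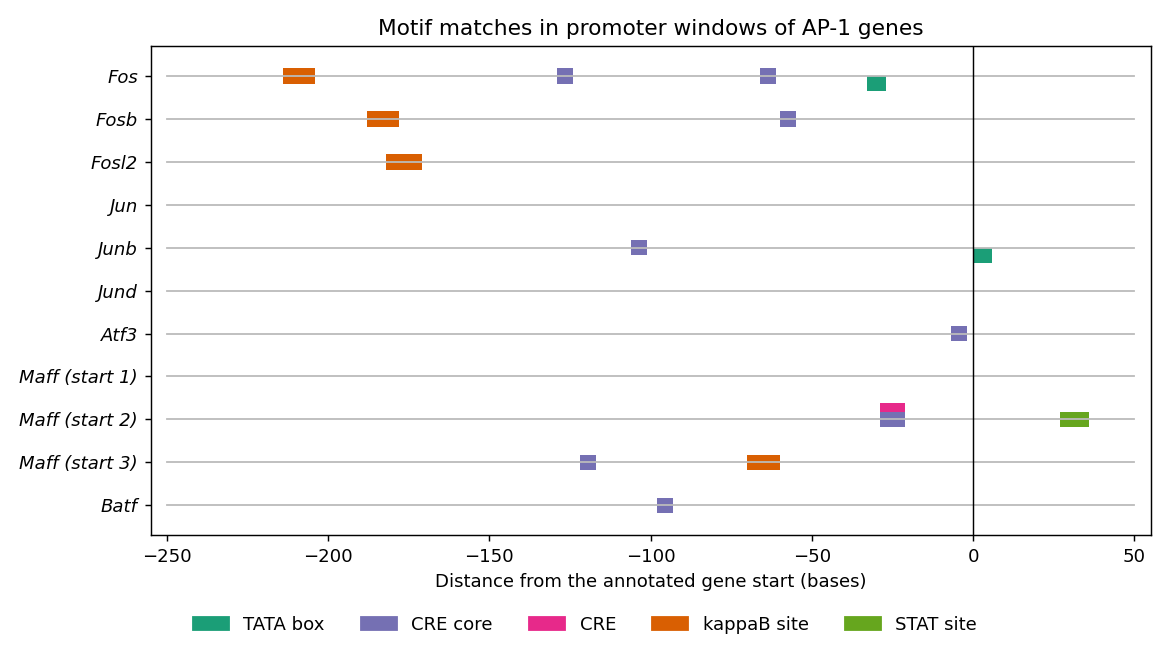
Motif matches in the promoter windows of 9 AP-1 genes, by distance in bases from the annotated gene start (0). Each grey line is 1 window, coloured boxes are matches, and Maff has 3 starts. Fos has 2 CRE cores and a TATA box, Junb and Batf have 1 core each, and the Jun and Jund windows have no exact match to the motifs.

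At 1 h, Junb and Fos rose with hepcidin and the other 8 genes did not pass the test. Of the 10 members 2 passed an adjusted p under 0.05 in limma, both higher, against 0.559% of all genes (0.527% higher and 0.0324% lower). The groups did not overlap in 5 members, Fos, Fosl2, Jun, Junb and Maff, against 12.3% of all genes. The median difference of the 10 was 0.13 on the log2 scale, against -0.0022 over all genes.

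Junb encodes a JUN protein that is itself induced early and often restrains c-Jun. Its expression was 9.25, 9.20 and 9.33 on the hepcidin arrays of 1 h, against 8.08, 8.20 and 8.23 on the PBS arrays of 1 h. Every hepcidin array stood above every PBS array, and the spread within each group was small. Junb rose by 1.09 on the log2 scale (SE 0.09, 95% interval 0.90 to 1.29, 2.13-fold, adjusted p = 2.51e-05). The call held whichever array was left out, with the difference between 1.05 and 1.12. By size of the difference Junb ranked 48 from the top among all genes tested.

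Fos encodes the partner that forms the classic AP-1 dimer with c-Jun, and its transcript is short-lived. It stood at 8.19, 8.56 and 8.38 with hepcidin at 1 h, against 7.14, 7.65 and 7.71 with PBS at 1 h. The groups did not overlap, and PBS replicate 1 was the lowest of its group by a wide margin. Fos rose by 0.88 (SE 0.14, 95% interval 0.56 to 1.19, 1.84-fold, adjusted p = 0.0129) and ranked 68 among all genes. Leaving out that PBS array gave a difference of 0.70, the lowest with 1 array left out, and the call held. Without hepcidin 1 h replicate 2 the difference was 0.79 (adjusted p = 0.0839) and without hepcidin 1 h replicate 3 it was 0.88 (adjusted p = 0.0603), and neither fit gave a call. With only the 1 h arrays in the fit the adjusted p was 0.111, and over all alternatives it ran from 0.00416 to 0.111.

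The remaining members were measured with smaller differences at 1 h, none past the test. Jun, the founding JUN gene, stood at 8.65, 8.68 and 8.98 with hepcidin, against 8.32, 8.50 and 8.60 with PBS. These groups did not overlap, and the difference of 0.30 had an interval of -0.024 to 0.62 (adjusted p = 0.769). Maff, a small MAF protein that lacks a transactivation domain, stood at 4.69, 4.65 and 4.77 with hepcidin, against 4.49, 4.30 and 4.40 with PBS. Its difference was 0.31 (SE 0.07, interval 0.15 to 0.46, adjusted p = 0.137). Maff lay below every array's median, where a change can read smaller than it is, and no fold is given for it. Atf3, a stress-induced factor known to curb inflammatory genes, differed by -0.24 (interval -0.48 to -0.0031, adjusted p = 0.726), with overlapping groups. Fosl2 differed by 0.10, Jund by 0.13, Batf by 0.14, Fosl1 by -0.09 and Fosb by -0.19, with adjusted p between 0.834 and 0.959.

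**Figure D2:**
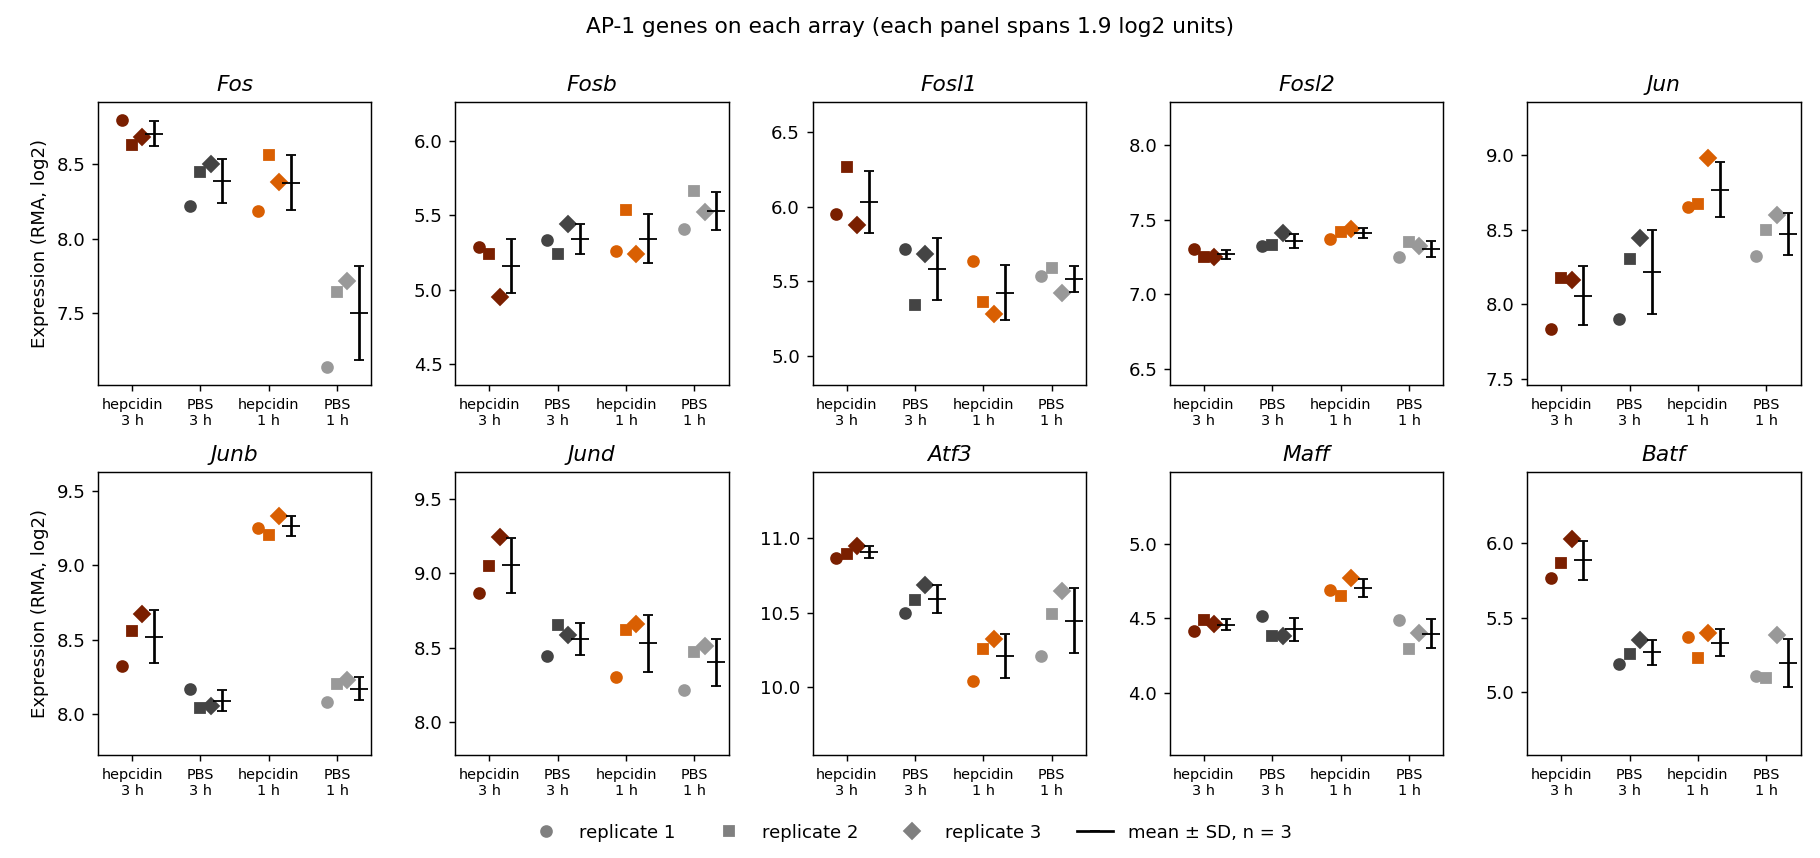
Expression of each AP-1 gene on each of the 12 arrays (RMA, log2 scale, y axis), by group (x axis), with symbols for replicate 1, 2 and 3 and bars for the mean ± SD of 3 arrays. Junb is highest with hepcidin at 1 h (9.20 to 9.33), Batf with hepcidin at 3 h (5.76 to 6.02), and Fos is lowest with PBS at 1 h (7.14 to 7.71).

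At 3 h, Batf, Jund and Junb rose with hepcidin against PBS, and the other 7 genes did not pass the test. Of the 10 members 3 passed in limma, all higher, against 5.33% of all genes (2.8% higher). The groups did not overlap in 7 members, Fos, Fosl1, Fosl2, Junb, Jund, Atf3 and Batf, against 21.7% of all genes. The median difference was 0.31, against 0.02 over all genes. Of 8 macrophage markers 2 were higher at 3 h, Cd14 by 0.80 and Spi1 by 0.30, and Mertk was lower (-1.08). The part of these markers in the AP-1 values was not tested.

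Batf encodes a small protein with a leucine zipper and no transactivation domain of its own, which pairs with JUN proteins and can join interferon regulatory factors. It stood at 5.76, 5.87 and 6.02 with hepcidin at 3 h, against 5.19, 5.26 and 5.35 with PBS at 3 h. The lowest hepcidin array was above the highest PBS array, and PBS at 1 h (5.10 to 5.38) and hepcidin at 1 h (5.23 to 5.39) were also below it. Batf rose by 0.62 (SE 0.10, 95% interval 0.41 to 0.83, 1.54-fold, adjusted p = 0.00180). Its signal was modest. The mean over the 12 arrays, 5.42, exceeded that of 56.9% of all genes, and the neutrophil marker Mpo also averaged 5.42. The call held whichever array was left out, with the difference between 0.55 and 0.68.

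Jund encodes the most evenly expressed JUN protein in many cells. It stood at 8.87, 9.05 and 9.24 with hepcidin at 3 h, against 8.44, 8.65 and 8.58 with PBS at 3 h, and the groups did not overlap. Jund rose by 0.49 (SE 0.12, interval 0.23 to 0.76, 1.41-fold, adjusted p = 0.0354). The call was lost without PBS 1 h replicate 2, without any of the 3 PBS arrays of 3 h, and without hepcidin 3 h replicate 2 or 3. In these 6 fits the difference was 0.40 to 0.54 and the adjusted p 0.0509 to 0.143, within a range of 0.00171 to 0.143 over all alternatives. With only the 3 h arrays in the fit it was 0.0586.

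Junb stood at 8.33, 8.56 and 8.67 with hepcidin at 3 h, against 8.17, 8.05 and 8.06 with PBS at 3 h. The groups did not overlap, though hepcidin replicate 1 lay close to the highest PBS array. Junb rose by 0.43 (SE 0.09, interval 0.23 to 0.62, 1.35-fold, adjusted p = 0.0139). Leaving out either PBS 3 h replicate 2 or 3, or the third hepcidin array of 3 h, gave no call: the difference was 0.35 to 0.41 and the adjusted p 0.0598 to 0.0626. Over all alternatives the adjusted p ran from 0.00295 to 0.0754, the last with only the 3 h arrays in the fit.

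Fos, Fosl1 and Atf3 were higher on every hepcidin array of 3 h than on any PBS array of 3 h but did not pass in the main fit. Fosl1 encodes FRA-1, a FOS protein that accumulates later than Fos after a stimulus in many cells. It stood at 5.95, 6.27 and 5.88 with hepcidin, against 5.72, 5.34 and 5.68 with PBS, a difference of 0.45 (SE 0.13, adjusted p = 0.0734). Atf3 stood at 10.87, 10.90 and 10.95 with hepcidin, against 10.50, 10.58 and 10.69 with PBS, a difference of 0.31 (SE 0.11, adjusted p = 0.140). With the replicate number in the limma fit the adjusted p of Atf3 was 0.0325, though the labels do not pair the samples by that number. Fos stood at 8.80, 8.63 and 8.68 with hepcidin, against 8.22, 8.45 and 8.50 with PBS, a difference of 0.31 (SE 0.14, adjusted p = 0.294). Jun differed by -0.16, Fosb by -0.18, Fosl2 by -0.09 and Maff by 0.03, with adjusted p between 0.472 and 0.884.

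**Figure D3:**
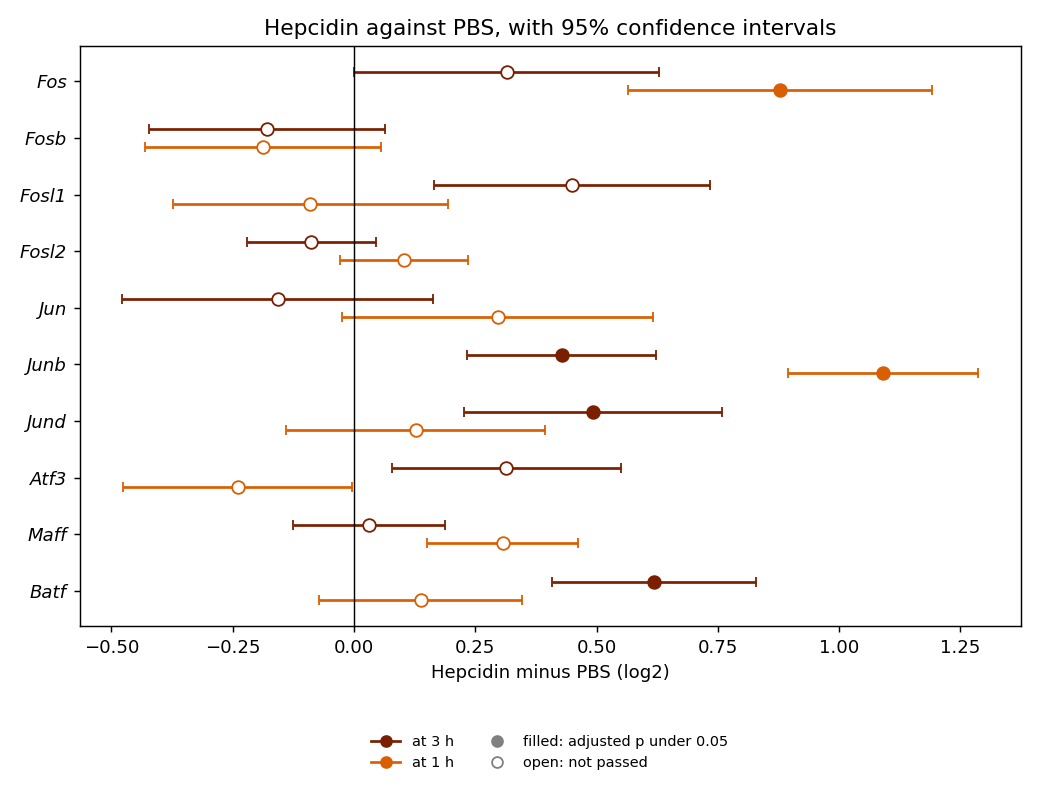
Difference between hepcidin and PBS for each AP-1 gene at 3 h and 1 h (x axis, log2), with 95% confidence intervals from limma and filled points where the adjusted p is under 0.05. Junb and Fos pass at 1 h (1.09 and 0.88), and Batf, Jund and Junb pass at 3 h (0.62, 0.49 and 0.43).

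Whether the hepcidin effect itself differed between the times was tested as the 3 h effect minus the 1 h effect. In the main fit Junb alone passed among the 10, against 1.03% of all genes (0.507% with a smaller or more negative effect at 3 h). Its effect was 0.43 at 3 h and 1.09 at 1 h, a difference of -0.66 (SE 0.13, interval -0.94 to -0.39, adjusted p = 0.0281). The call held only without hepcidin 3 h replicate 1 or 3. Without any of the other 10 arrays in turn the difference stayed at -0.69 to -0.62, and the adjusted p was 0.0516 to 0.0822. For Fos the difference was -0.56 (interval -1.01 to -0.12, adjusted p = 0.335) and for Jun -0.45 (interval -0.91 to 0.00029, adjusted p = 0.497). For Atf3 it was 0.55 (adjusted p = 0.158), and with the replicate number in the fit the adjusted p was 0.0344. For Fosl1 the difference was 0.54 (adjusted p = 0.292), for Batf 0.48 (adjusted p = 0.173) and for Jund 0.37 (adjusted p = 0.514). The data therefore do not show that the effect on Batf or Jund at 3 h differed from that at 1 h. Intervals are for 1 gene at a time, without adjustment for the number of genes.

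With PBS alone, Fos was the member that differed between the times. It rose by 0.89 in PBS at 3 h against PBS at 1 h (SE 0.14, interval 0.58 to 1.20, 1.85-fold, adjusted p = 0.0234), and 6 of the 24675 genes had a larger rise. Of the 10 members it alone passed, and it alone had groups that did not overlap, against 0.45% of all genes that passed and 17.7% that did not overlap. Fos averaged 8.39 ± 0.15 with PBS at 3 h, 8.38 ± 0.19 with hepcidin at 1 h and 8.70 ± 0.08 with hepcidin at 3 h, against 7.50 ± 0.31 with PBS at 1 h (SD, n = 3 each). PBS at 1 h was thus the group that stood apart, and the 1 h hepcidin comparison and this one share its arrays. The call was lost without PBS 1 h replicate 1 (0.71, adjusted p = 0.0548), PBS 1 h replicate 2 (0.96, adjusted p = 0.0660), PBS 3 h replicate 2 (0.86, adjusted p = 0.107) or PBS 3 h replicate 3 (0.83, adjusted p = 0.120). With only the PBS arrays in the fit the adjusted p was 0.104, and over all alternatives it ran from 0.00715 to 0.120. Among the other members the difference in PBS lay between -0.26 for Jun and 0.16 for Jund, with adjusted p of 0.609 or more.

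With hepcidin, 6 of the 10 members differed between 3 h and 1 h, 4 higher and 2 lower, against 5.05% of all genes (2.44% higher and 2.61% lower). The groups did not overlap in 9 members, all but Fosb, against 20.1% of all genes. The JUN group split. Junb was lower at 3 h by -0.74 on the log2 scale (SE 0.09, adjusted p = 3.66e-04) and Jun by -0.71 (SE 0.15, adjusted p = 0.0145), while Jund was higher by 0.52 (SE 0.12, adjusted p = 0.0277). Jun stood at 7.83, 8.18 and 8.17 with hepcidin at 3 h, against 8.65, 8.68 and 8.98 with hepcidin at 1 h, and in PBS it averaged 8.22 ± 0.28 at 3 h and 8.47 ± 0.14 at 1 h. Its groups were well apart with hepcidin and overlapped with PBS.

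Atf3, Fosl1 and Batf were the other members higher at 3 h than at 1 h with hepcidin. Atf3 stood at 10.87, 10.90 and 10.95 at 3 h, against 10.04, 10.26 and 10.32 at 1 h, a rise of 0.70 (SE 0.11, 1.62-fold, adjusted p = 0.00232). The hepcidin arrays of 1 h and PBS 1 h replicate 1, at 10.21, held the lowest Atf3 values of the 12. Fosl1 rose by 0.61 (SE 0.13, 1.52-fold, adjusted p = 0.0182) and Batf by 0.55 (SE 0.10, 1.47-fold, adjusted p = 0.00488). The signal of Fosl1 was modest as well, with a mean of 5.64 over the 12 arrays, above that of 59.2% of genes. Maff was lower by -0.24 (adjusted p = 0.0801), Fosl2 by -0.14 (adjusted p = 0.260) and Fosb by -0.18 (adjusted p = 0.463), and Fos was higher by 0.33 (adjusted p = 0.277), none past the test.

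The calls of Junb, Atf3 and Batf between the hepcidin times held whichever array was left out. That of Jun was lost without hepcidin 1 h replicate 3 or hepcidin 3 h replicate 1 (-0.61 and -0.60, adjusted p = 0.0670 and 0.0563). That of Fosl1 was lost without hepcidin 1 h replicate 2 or 3 or hepcidin 3 h replicate 2 (0.49 to 0.58, adjusted p 0.0615 to 0.0791). That of Jund was lost without hepcidin 1 h replicate 1 or 2 or hepcidin 3 h replicate 2 or 3 (0.41 to 0.57, adjusted p 0.0573 to 0.113). With only the hepcidin arrays in the fit the adjusted p was 0.0622 for Fosl1 and 0.0930 for Jund. These comparisons share arrays with those against PBS and are not independent of them.

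**Figure D4:**
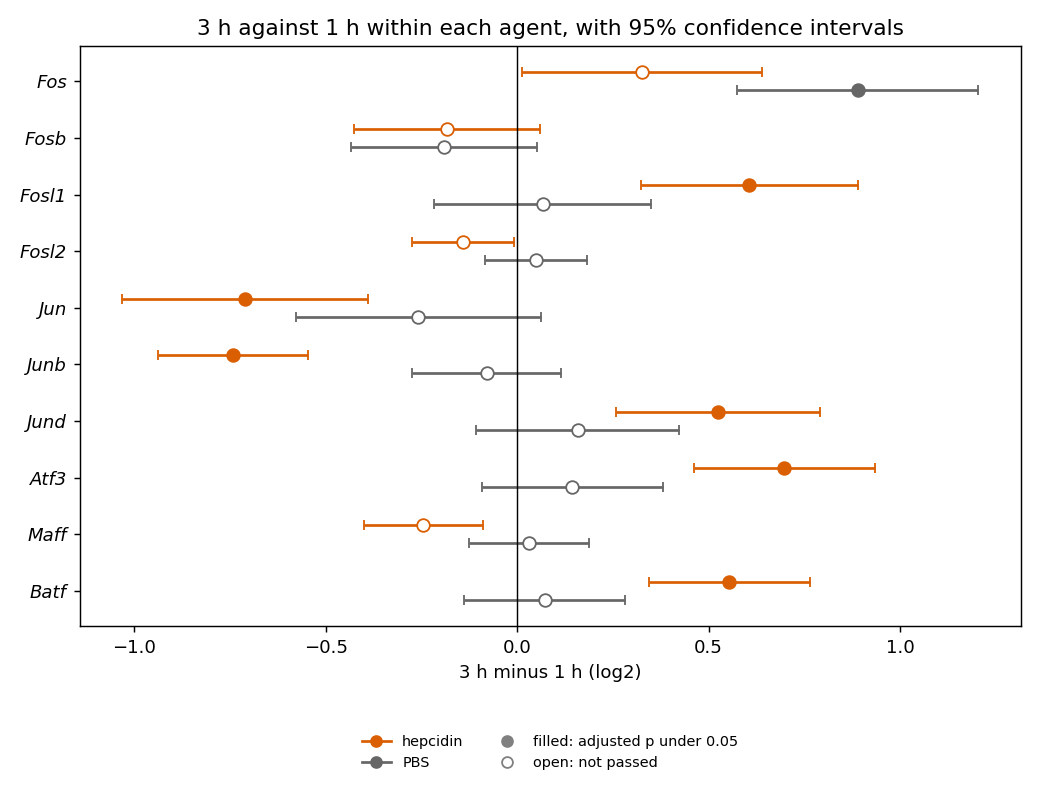
Difference between 3 h and 1 h for each AP-1 gene (x axis, log2) within hepcidin and within PBS, with 95% confidence intervals and filled points where the adjusted p is under 0.05. With hepcidin, Fosl1, Jund, Atf3 and Batf are higher at 3 h and Jun and Junb lower, and with PBS Fos alone passes (0.89).

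The members also differed in how far replicate arrays scattered. The pooled SD within groups was 0.21 for Jun and 0.20 for Fos, larger than that of 88.2% and 87.2% of all genes, against a median of 0.12. Fosl2, which encodes FRA-2, had an SD of 0.04, larger than that of 1.74% of genes, and its 12 values lay between 7.25 and 7.44. Its groups could therefore separate at 1 h and at 3 h on differences of 0.10 and -0.09 that did not pass. Fosb, a close relative of Fos that is strongly inducible in neurons, ranged from 4.95 to 5.66 over the 12 arrays and passed in 0 of the 5 comparisons. Fosl2 and Maff also passed in 0 of the 5.

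For each member called with hepcidin against PBS, likeness to another gene was the root mean square difference of the 12 values, each gene first centred on its own mean. Nearest to Junb were the MAP3 kinase gene Map3k8 (0.12), Irf1 (0.16), an interferon regulatory factor gene, and the stress gene Gadd45b (0.18), where the spread of Junb around its own mean was 0.47. Map3k8 differed by 0.21 at 3 h (adjusted p = 0.131) and 0.93 at 1 h (adjusted p = 1.27e-05), beside 0.43 and 1.09 for Junb. Nearest to Fos were Myc (0.22), the IL-10 receptor gene Il10ra (0.25) and Gpr85 (0.26), where the spread of Fos was 0.48. Nearest to Jund were Slamf7 (0.07), the cholesterol exporter gene Abca1 (0.09) and Trip10 (0.10), with a spread of 0.28. Nearest to Batf were Rasa4 (0.08), Trip10 (0.08) and the thioredoxin reductase gene Txnrd1 (0.08), with a spread of 0.29. Within the family, Jund and Batf were each other's nearest member (0.13), and Junb and Atf3 were the farthest apart (0.64).

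Beyond the 10, other AP-1 and related basic leucine zipper genes did not pass at 1 h and in part rose at 3 h. Of 27 such genes, 8 rose and 0 fell at 3 h, against 2.8% of all genes higher and 2.53% lower, and 0 passed at 1 h. The median difference was 0.13 at 3 h and 0.02 at 1 h, against 0.02 and -0.0022 over all genes. Jdp2, which encodes a JUN dimerization partner known as a repressor, averaged 7.64 with hepcidin at 3 h, against 6.11 with PBS at 3 h, and rose by 1.53 (SE 0.10, 2.88-fold, adjusted p = 1.56e-06). That exceeded the hepcidin difference of each of the 10 members at either time. Jdp2 was also lower in PBS at 3 h than in PBS at 1 h, with means of 6.11 and 6.67 (-0.55, adjusted p = 0.0383). Nfe2l1 rose by 0.54, Mafg, another small MAF gene, by 0.48, Nfe2l2, which encodes the oxidative stress factor NRF2, by 0.43 and Nfil3 by 0.39.

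The kinases that signal to AP-1 changed in a few genes at the RNA level, which is not their activity. Of 21 genes, 1 rose and 2 fell at 3 h, against 2.8% of all genes higher and 2.53% lower. At 1 h 1 rose and 0 fell, against 0.527% higher and 0.0324% lower. Map3k8, the kinase upstream of ERK in toll-like receptor signalling, rose at 1 h as given above. At 3 h Mapkapk2, a kinase downstream of p38, rose by 0.83 (1.77-fold, adjusted p = 4.37e-05), Map2k6, which activates p38, fell by 1.17 (adjusted p = 7.64e-04) and Map3k1 fell by 0.61 (adjusted p = 1.23e-04). The medians were 0.02 at 3 h and -0.02 at 1 h, against 0.02 and -0.0022 over all genes.

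Of 9 factors known to act on the Fos and Jun promoters, 4 fell and 0 rose at 3 h, against 2.53% of all genes lower and 2.8% higher. At 1 h 0 passed, against 0.0324% lower and 0.527% higher. Mef2c fell by 0.55 (adjusted p = 5.62e-04), Mrtfa, a coactivator of serum response factor, by 0.45 (adjusted p = 0.00129), Mef2d by 0.40 (adjusted p = 0.0290) and Mef2a by 0.39 (adjusted p = 0.00368). Serum response factor itself, Srf, differed by 0.08 at 3 h and 0.07 at 1 h. The list had a median of -0.27 at 3 h and 0.07 at 1 h, against 0.02 and -0.0022 over all genes.

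Among 24 genes described as AP-1 targets, 11 rose and 0 fell at 3 h, against 2.8% of all genes higher and 2.53% lower. This list, like the other lists, was chosen with earlier results of these data known, so the counts describe it and test nothing. At 1 h 6 rose and 0 fell, against 0.527% higher and 0.0324% lower. Several of those named next are also known targets of NF-kB, so the list does not single out AP-1. The 5 with the largest differences encode inflammatory products: Il1b differed by 4.12 at 3 h and 2.96 at 1 h, Ptgs2, the inducible cyclooxygenase, by 3.25 and 2.58, Tnf by 2.67 and 3.60, the adhesion molecule gene Icam1 by 2.56 and 1.76, and the chemokine gene Ccl4 by 1.79 and 0.98. The PBS values of Il1b, 4.11 at 3 h and 3.88 at 1 h, lay below the array medians. The median of the list was 0.28 at 3 h and 0.15 at 1 h, against 0.02 and -0.0022 over all genes, and 13 of the 24 did not pass at 3 h and 18 at 1 h.

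**Figure D5:**
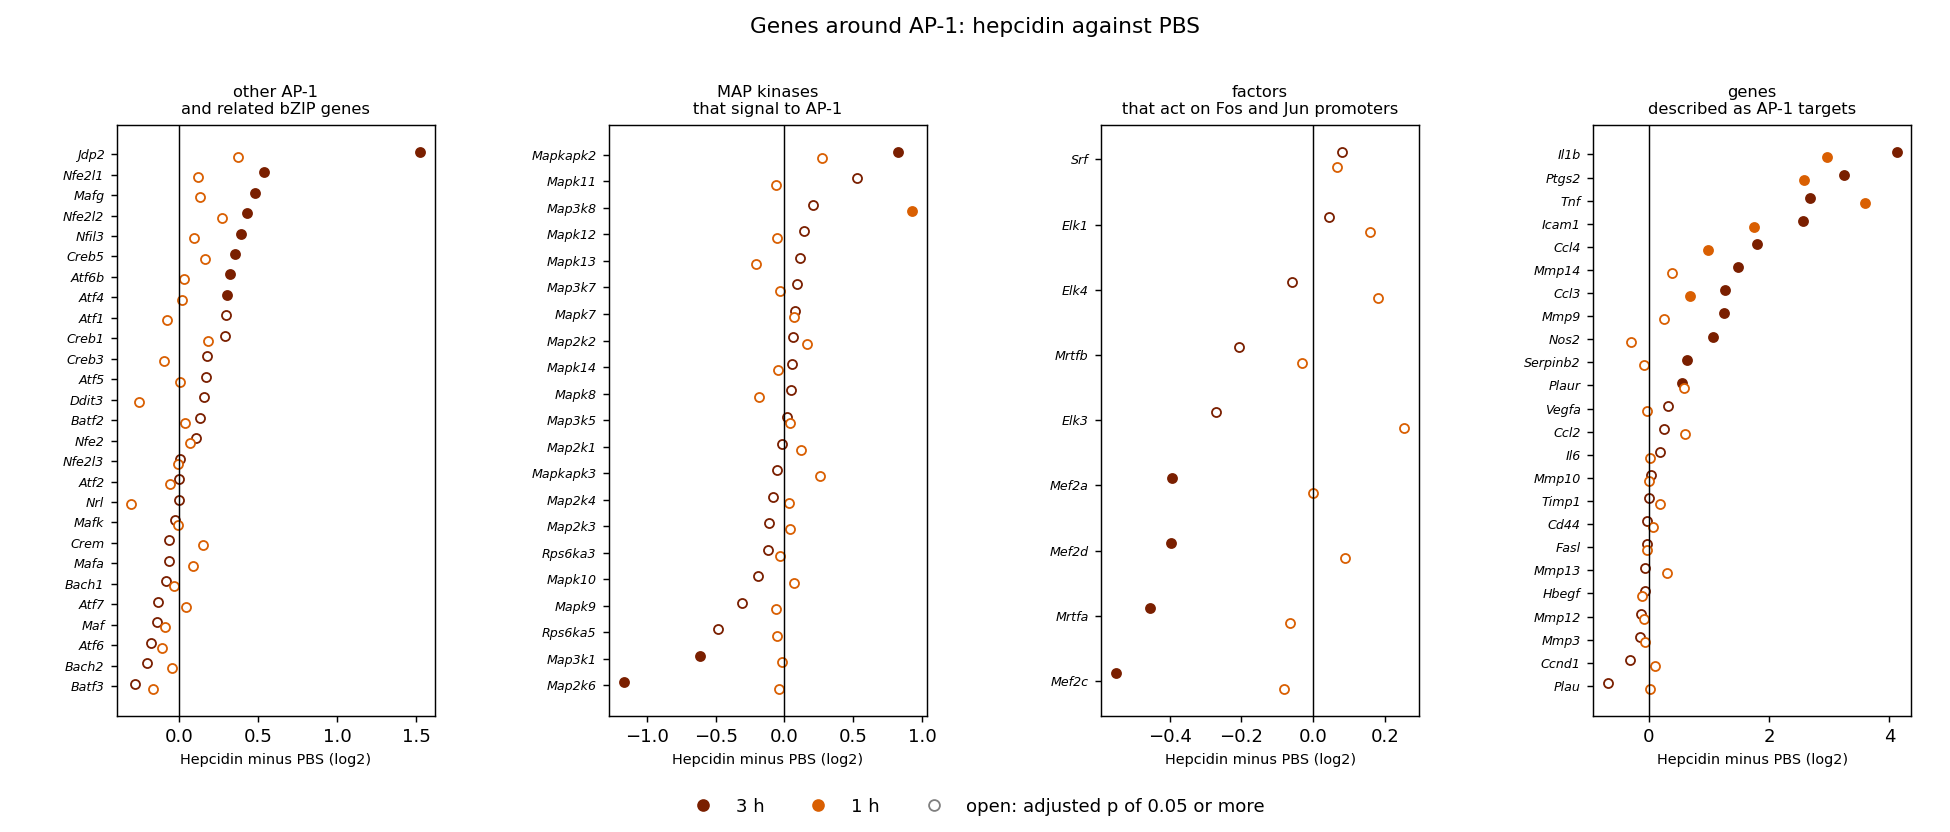
Difference between hepcidin and PBS (x axis, log2) at 3 h and 1 h for the genes of 4 lists around AP-1, filled where the adjusted p is under 0.05; the scale differs between panels. Jdp2 is the largest rise among related zipper genes (1.53 at 3 h), Map2k6 the largest fall among the kinases (-1.17 at 3 h), and 4 promoter factors are lower at 3 h.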

How the data were processed

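Per the labels' protocols, Trizol-extracted total RNA was turned into biotinylated cDNA with a whole-transcript kit. The deposited table covers 25429 probe sets and 12 arrays. RMA and Partek are listed, without version or role, in the submitters' processing notes. The deposited values were used as log2 because RMA returns log2 and their range fits, although no label writes the log base. The probe definition and build are not given in the sources used here. A symbol was found for 24675 probe sets through the platform's gene annotation, 1 per gene, and was updated from RefSeq by gene ID. Each was tested with no filter on expression. Promoters came from RefSeq.

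With limma 3.58.1 under R 4.3.3, 4 group means were fitted by lmFit and eBayes over all 12 arrays, with 8 residual and 4.11 prior degrees of freedom. There were 5 comparisons, with p-values adjusted over all genes within each by Benjamini and Hochberg, and genes past an adjusted p under 0.05 were called. The procedure was tested on simulated data. The 10 members and all gene lists were chosen with earlier results of these data known. Named were the 10 members, up to 5 called genes per list and time, and the 3 most alike genes per member called with hepcidin. The settings varied were a block on replicate number, the variance prior, a filter, normalization, all probe sets, array weights, only the groups compared, other thresholds and each array left out.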

Additional observations from a re-analysis of the deposited data

Results flagged for a closer look

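The hepcidin effect was tested for a difference between the times, as the 3 h effect minus the 1 h effect in the main limma fit. It differed for 1 of the 10 AP-1 members and for genes of each list around them, against 1.03% of all genes. Over all genes 254 passed, and 141 to 234 with 1 array left out. The list genes given below were not followed through those fits. Junb was the member, with a difference of -0.66 (effects of 0.43 at 3 h and 1.09 at 1 h, adjusted p = 0.0281). Its call was lost without 10 of the 12 arrays in turn. Of the 27 related zipper genes 2 differed, Jdp2 by 1.15 (1.53 at 3 h and 0.37 at 1 h, adjusted p = 0.00256) and Nfe2l1 by 0.42 (0.54 and 0.12, adjusted p = 0.0431).

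Of the 21 kinases, Map3k8 differed by -0.72 (0.21 at 3 h and 0.93 at 1 h, adjusted p = 0.00448), Map2k6 by -1.13 (-1.17 and -0.04, adjusted p = 0.0378), Map3k1 by -0.59 (-0.61 and -0.02, adjusted p = 0.0118) and Mapkapk2 by 0.55 (0.83 and 0.28, adjusted p = 0.0432). Of the 9 promoter factors 1 differed, Elk3 by -0.52 (-0.27 at 3 h and 0.25 at 1 h, adjusted p = 0.0365).

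Of the 24 genes described as targets, 6 had a more positive effect at 3 h and 1 a less positive one. Nos2 differed by 1.37 (1.07 at 3 h and -0.30 at 1 h, adjusted p = 7.80e-04), Il1b by 1.15 (4.12 and 2.96, adjusted p = 0.0120) and Mmp14 by 1.10 (1.49 and 0.39, adjusted p = 0.0122). Icam1 differed by 0.81 (2.56 at 3 h and 1.76 at 1 h, adjusted p = 0.0253), Serpinb2 by 0.71 (0.63 and -0.08, adjusted p = 0.0297) and Ccl3 by 0.58 (1.26 and 0.68, adjusted p = 0.0237). Serpinb2 averaged 3.49 with hepcidin at 3 h and 2.86 with PBS at 3 h, and all its group means lay below the array medians. Tnf was the one with a smaller effect at 3 h, by -0.92 (2.67 at 3 h and 3.60 at 1 h, adjusted p = 0.0296). Elk3, Nos2, Mmp14, Serpinb2 and Ccl3 are outside the naming rule and are given after their values were seen, so that each gene of these lists that passed is listed.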

How the results depend on the processing

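Of the 13 calls of AP-1 genes over the 5 comparisons, 5 held with each array left out in turn and 8 were lost without at least 1. Leaving out 1 array gave 1 to 2 AP-1 calls for hepcidin at 1 h, 1 to 3 at 3 h, 0 to 1 for the difference between them, 0 to 1 for time in PBS and 4 to 6 for time in hepcidin. Over all genes it gave 837 to 1287 calls at 3 h (1316 with every array), 141 to 234 for the difference (254), 23 to 126 for time in PBS (111) and 721 to 1178 for time in hepcidin (1246). With only the groups compared, AP-1 calls were 1 at 1 h (Junb), 1 at 3 h (Batf) and 0 for time in PBS, and all genes gave 805 calls at 3 h, 7 for time in PBS and 616 for time in hepcidin; fewer arrays then estimate the spread. A fold minimum of 1.5 left 1 AP-1 gene at 3 h, and 480 genes at 3 h, 42 for time in PBS and 407 for time in hepcidin. Time in PBS gave 319 calls with a trended and robust prior, 333 among genes above the median, 64 with median centring, 285 with array weights and 248 at an adjusted p under 0.1. The difference gave 433 with the trended prior, 412 above the median and 391 at an adjusted p under 0.1. Apart from these thresholds and gene filters, the cause was not tested.

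The replicate numbers do not pair the samples by the labels. Same-numbered arrays had deviations correlated at -0.0054 to 0.246, over 0.1 in 9 of 18 pairs, though all 12 arrays correlated best with their own number, a hint from the data only. With the number as a block, the difference had 2 AP-1 calls, Junb and Atf3 (Atf3 0.55, adjusted p = 0.0344), Atf3 also passed at 3 h (adjusted p = 0.0325), and time in PBS had 240 calls over all genes.

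Directions turned only for values near 0. The Fosb difference between times, 0.0080, was -0.014 with quantile normalization, -0.034 with median centring and -0.059 to 0.111 with 1 array left out. Time in PBS was -0.0023 to 0.187 for Fosl1 and -0.019 to 0.0779 for Maff with 1 array left out. Of single-gene results 929 kept side and direction, 40 lost a call, 5 gained one and 11 turned.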

Other observations

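Genes of the lists around AP-1 also differed with time in PBS, and those given here were chosen after their values were seen. Of the related zipper genes 3 of 27 passed, Jdp2 (given above) among them. So did 1 of 21 kinases, 0 of 9 promoter factors and 1 of 24 described targets, against 0.45% of all genes. The integrated stress response genes Atf4 and Ddit3, both basic leucine zipper factors, were lower in PBS at 3 h than in PBS at 1 h, Atf4 by -0.58 (SE 0.07, adjusted p = 0.00464) and Ddit3 by -0.76 (SE 0.13, adjusted p = 0.0348). Mapk8, which encodes the JUN kinase JNK1, was lower by -0.40 (SE 0.07, adjusted p = 0.0319). Ptgs2 was higher by 0.77 (SE 0.14, adjusted p = 0.0348), beside the rise of 0.89 in Fos. With hepcidin in the same limma fit, Atf4 was also lower at 3 h than at 1 h (-0.30, adjusted p = 0.0270). Ptgs2 was higher there as well (1.44, adjusted p = 6.75e-05). Ddit3 (-0.35, adjusted p = 0.202) and Mapk8 (-0.17, adjusted p = 0.231) did not pass with hepcidin. Atf4 averaged 9.78 in PBS at 3 h, against 10.4 in PBS at 1 h.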
